A study of Neurospora crassa OR74A with 12 samples.

Results

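Genes of superoxide dismutases and of the NADPH oxidase system of Neurospora crassa were followed across 12 RNA-seq libraries of mycelium. They are 5 of the 10685 genes counted, and they were taken by locus, namely sod-1 (NCU02133), sod-2 (NCU01213), nox-1 (NCU02110), nox-2 (NCU10775) and nor-1 (NCU07850). The libraries come from the WT strain and from upf-1KO, in which upf-1 was replaced by a hygromycin resistance cassette, each cultured either without H2O2 or with 20 mM H2O2, with 3 libraries from independent pools in each of the 4 groups. UPF1 is the RNA helicase at the centre of nonsense-mediated mRNA decay, the pathway that degrades transcripts with premature stop codons. According to the study's methods the strains carry the bd allele of ras-1, a background that the controls share, and the deletion was made in a host with an inactivated ku70 gene. The sample labels give OR74A as the strain of all 12 libraries. The duration of the H2O2 treatment and the number of independent upf-1KO isolates were not given in the sources used here, and the mycelium label was not checked against marker genes.

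Superoxide dismutases convert superoxide into H2O2 and oxygen. SOD-1 is the copper and zinc enzyme, found mainly in the cytosol, and SOD-2 is the manganese enzyme of mitochondria. NADPH oxidases work in the opposite sense, since they pass electrons from NADPH to oxygen across a membrane and so make superoxide. NOX-1 and NOX-2 are catalytic subunits, and NOR-1 is the regulatory subunit that activates them. In N. crassa nox-1 and nor-1 are known for roles in sexual development, aerial growth and the fusion of hyphae, and nox-2 for ascospore germination. The set therefore holds enzymes that remove superoxide and enzymes that make it, and it was compared between treated and untreated mycelium and between the strains.

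All coordinates refer to the NC12 assembly. The shortest of the transcripts was that of sod-1 (chromosome I, 1135057 to 1136630), with 4 exons and 1129 exonic bases. The sod-2 gene (chromosome V, 3262280 to 3265413) has 3 exons and 2923 exonic bases. The nox-1 gene lies on the same chromosome as sod-1 (chromosome I, 1253810 to 1257287) and has 4 exons and 3243 exonic bases. The nox-2 gene (chromosome VII, 3043584 to 3047063) has 2 annotated transcripts whose exons merge into 3 blocks with 3336 bases. The nor-1 gene (chromosome III, 1099742 to 1103951) has 6 exons and 3884 bases. None of the 5 genes overlaps another annotated gene, although nor-1 is separated from NCU07849 by only 15 bases. The median exonic length of the 7878 genes tested was 2209 bases. Thus sod-1 is a short gene in this set (10.3% of tested genes were shorter) and the 4 others are longer than the median.

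Between 5891672 and 7703271 reads were counted on genes per library. Levels are given as normalized counts, which are counts divided by the library size after TMM scaling (trimmed mean of M values, the scaling of edgeR) and brought to the mean library. A gene was called changed at a Benjamini-Hochberg adjusted p under 0.05 over all 7878 genes tested, with edgeR's quasi-likelihood test over the 12 libraries. TMM factors were 1.3 to 1.53 in the untreated libraries of both strains, 0.481 to 0.602 in the WT libraries with H2O2 and 0.802 to 1.12 in the upf-1KO libraries with H2O2, so the scaling of treated against untreated libraries was large. In upf-1KO with H2O2, replicate 2 stood apart, with a TMM factor of 1.12 against 0.802 and 0.836 in the others and a lowest Spearman correlation of 0.94 with a library of its group, where the untreated groups had at least 0.991. With H2O2 the log2 fold change also fell with gene length over all genes (Spearman's rho across genes -0.434 in WT and -0.424 in upf-1KO, genes not being independent replicates). The targeted gene, upf-1 (NCU04242, prd-6 in RefSeq), had 531 to 575 normalized counts in untreated WT and 160 to 177 in untreated upf-1KO, and 1050 to 1367 against 255 to 491 with H2O2, so reads remained on this locus in the deletion strain but its groups never overlapped. The p-values measure the spread between pools, and in bulk RNA a change in the share of cells cannot be told apart from a change in the RNA per cell.

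All 5 genes passed the filter on low counts, and the lowest count of any of them in any library was 101, for nox-1, where counting error alone is 9.95%. Per kilobase of exon, sod-1 was the most abundant of the set in each group by a wide margin. Its mean was 2452 normalized counts per kilobase in untreated WT, 2065 in untreated upf-1KO, 6245 in WT with H2O2 and 4276 in upf-1KO with H2O2, which was 7.9, 7.48, 15.4 and 14.7 times the next gene. Without H2O2 the next gene was nor-1 in both strains (310.4 per kilobase in WT and 276.2 in upf-1KO), followed by nox-2 (232.6 and 166.9). The nor-1 and nox-2 libraries overlapped in WT and did not in upf-1KO. The lowest levels in untreated WT were those of nox-1 (138.2) and sod-2 (124.1), whose libraries overlapped, while in untreated upf-1KO sod-2 (140) lay above nox-1 (95.81) without overlap. With H2O2 the order below sod-1 was nox-2, sod-2, nor-1 and nox-1 in both strains. Neighbours among nox-2, sod-2 and nor-1 overlapped, so that the order of neighbours did not exceed the spread. In upf-1KO, however, nox-2 (241.5 to 385.1 per kilobase) and nor-1 (180.8 to 197.6) did not overlap. Below sod-1 only nox-1 stood clear of every other gene, at the bottom, with 84.82 per kilobase in WT and 86.12 in upf-1KO. These orders come without a test.

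**Figure D1:**
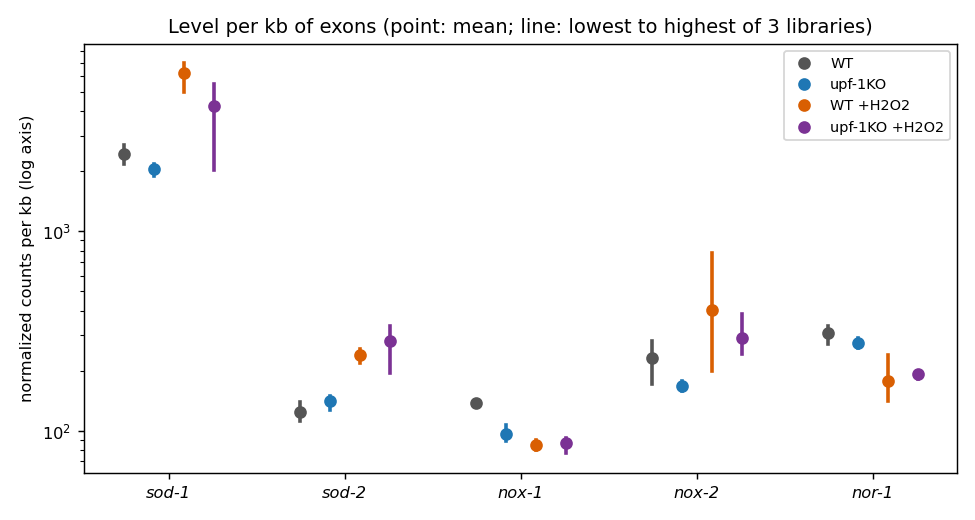
Normalized counts per kilobase of exon on a log axis for the 5 genes in each of the 4 groups, with a point at the mean of each group and a line from its lowest to its highest of 3 libraries. The sod-1 means lie above all others, at 2065 to 6245 per kilobase, and nox-1 is lowest in 3 of the 4 groups.

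In untreated mycelium 1 of the 5 genes was called between upf-1KO and WT. Of the 5, nox-1 was called lower and none higher, where 4.71% of all tested genes were called lower and 10.4% higher. The nox-1 gene had 443, 458 and 443 normalized counts in WT replicates 1 to 3 and 298, 289 and 345.5 in upf-1KO. All upf-1KO libraries were below all WT libraries, and the log2 fold change was -0.53 (standard error 0.151, 95% interval -0.86 to -0.20, adjusted p = 0.034). That call was marginal, because it was lost in 11 of the 12 fits with 1 library left out, at adjusted p values up to 0.157, and kept only without upf-1KO replicate 2 with H2O2 (adjusted p = 0.00292), with log2 fold changes of -0.61 to -0.41 over these fits.

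The partner of nox-1, nor-1, showed no call in the same comparison. It had 1304, 1055 and 1258 normalized counts in WT and 1131, 1004 and 1084 in upf-1KO, ranges that overlapped (log2 fold change -0.17, 95% interval -0.59 to 0.25, adjusted p = 0.611). The nox-2 gene had 935, 572 and 820.1 normalized counts in WT and 555, 590.3 and 525 in upf-1KO. The upf-1KO values were the tighter set and lay within or below the WT range (log2 fold change -0.48, 95% interval -1.41 to 0.46, adjusted p = 0.502).

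Neither superoxide dismutase gene of the set was called in untreated upf-1KO. For sod-1 the WT libraries had 2463, 3046 and 2794 normalized counts and the upf-1KO libraries 2404, 2460 and 2129. The ranges did not quite meet, with 2460 as the highest upf-1KO value and 2463 as the lowest of WT, and the log2 fold change was -0.25 (95% interval -0.90 to 0.41, adjusted p = 0.637). For sod-2 the WT libraries had 405, 328 and 354.5 and the upf-1KO libraries 368.5, 435 and 424. The groups overlapped, with a log2 fold change of 0.17 (95% interval -0.26 to 0.61, adjusted p = 0.617). When only the untreated groups were fitted, 3 of the 5 genes were called (nox-1 and nox-2 lower, sod-2 higher). This was near the share over all genes, since that fit called 56.7% of its 7720 tested genes. With the 12 libraries 15.1% of all tested genes were called. The smaller fit had its own scaling, filter and estimate of the spread, and which of these changed the count was not tested.

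**Figure D2:**
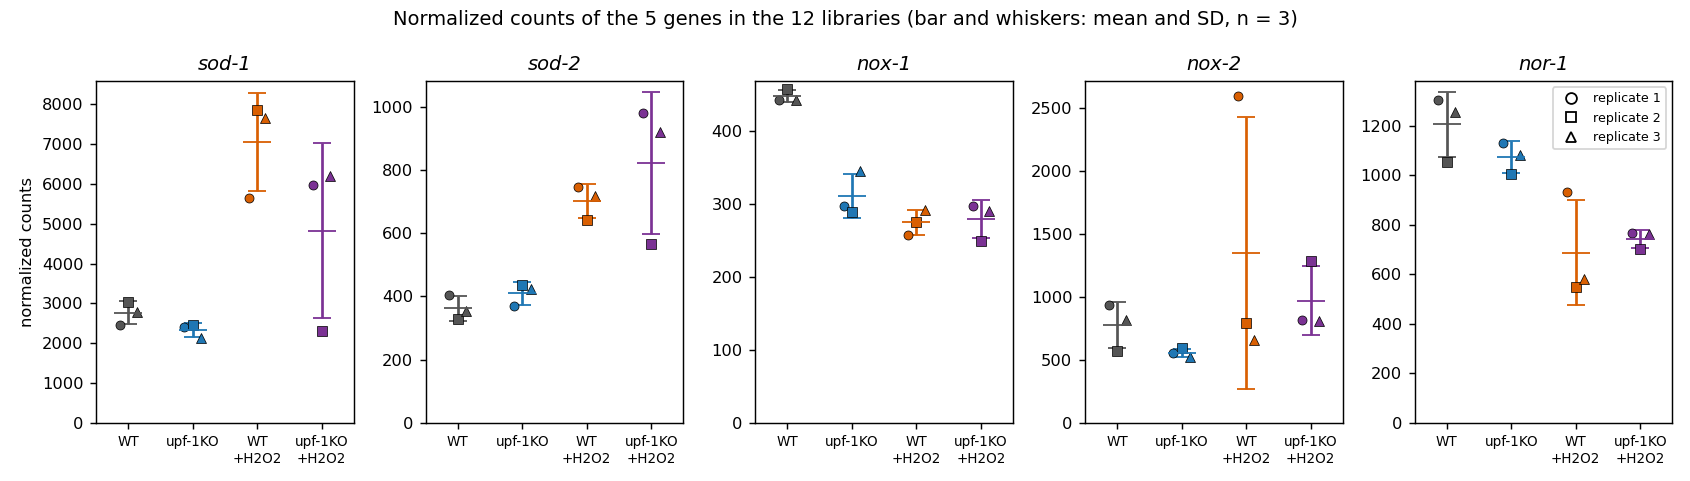
Normalized counts of the 5 genes in every library, with 1 panel per gene, the strains without and with H2O2 along the x axis, a marker shape for each replicate, and a bar and whiskers at the mean and SD of each group (n = 3). With H2O2 the WT points of both sod genes lie above and those of nox-1 and nor-1 below the untreated points, and nox-2 has 1 far point in WT (2599) and 1 in upf-1KO (1285).

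With 20 mM H2O2 the transcripts of the enzymes that remove superoxide and most of those for making it changed in opposite directions in WT under TMM scaling. Both superoxide dismutase genes of the set were called higher and nox-1 and nor-1 were called lower, while nox-2 was not called. Over all tested genes 56.6% were called, 26.5% higher and 30.2% lower, so calls were common in this comparison. The sod-1 gene had 5636, 7855 and 7661 normalized counts with H2O2, against the untreated 2463 to 3046. Every treated library exceeded every untreated one, at 2.55 times the untreated level (log2 fold change 1.35, standard error 0.305, 95% interval 0.68 to 2.02, adjusted p = 0.00273). The sod-2 gene had 746.5, 641 and 719 normalized counts with H2O2, against 328 to 405 without. The groups were again apart, at 1.94 times the untreated level (log2 fold change 0.95, standard error 0.203, 95% interval 0.51 to 1.40, adjusted p = 0.00187).

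The oxidase genes nox-1 and nor-1 went the other way in WT. The nox-1 gene had 258, 276 and 292 normalized counts with H2O2, below each of the untreated libraries (443 to 458). It was at 0.614 times the untreated level (log2 fold change -0.70, standard error 0.154, 95% interval -1.04 to -0.37, adjusted p = 0.00216). The nor-1 gene had 931, 549 and 582 normalized counts with H2O2, below the untreated 1055 to 1304. It was at 0.571 times the untreated level (log2 fold change -0.81, standard error 0.195, 95% interval -1.23 to -0.38, adjusted p = 0.004), and the library with 931 was replicate 1, which was also the library with the most nox-2.

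For nox-2 in WT a single library set the value. Its normalized counts with H2O2 were 2599, 791.5 and 661, against 935, 572 and 820.1 without H2O2. Replicate 1 was far above the others, and both of those lay inside the untreated range. The log2 fold change was 0.80 (95% interval -0.14 to 1.74, adjusted p = 0.13), and without replicate 1 it was -0.02 (adjusted p = 0.941). Leaving out WT replicate 2 or 3 with H2O2 instead gave 1.15 (adjusted p = 0.0486) and 1.2 (adjusted p = 0.0283). In the same replicate 1 the catalase genes cat-1 (4938 normalized counts against 1793 and 1709) and cat-2 (643 against 169 and 168) were high as well, and whether these have to do with its nox-2 level was not tested.

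In upf-1KO the same treatment gave calls in the same direction for 3 of the genes, sod-1 and sod-2 higher and nor-1 lower, where 48.8% of all tested genes were called, 26% higher and 22.8% lower. The sod-2 gene had 980, 566 and 920 normalized counts with H2O2 against 368.5 to 435 without. All treated libraries exceeded all untreated ones, at 2.01 times the untreated level (log2 fold change 1.01, standard error 0.202, 95% interval 0.56 to 1.45, adjusted p = 0.0017). That call held in all 12 fits with 1 library left out, as it did in WT.

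The sod-1 gene had 5984, 2296 and 6204 normalized counts with H2O2 in upf-1KO, against 2129 to 2460 without. Replicates 1 and 3 were high, whereas replicate 2 lay within the untreated range, so the groups overlapped. The log2 fold change was 1.05 (standard error 0.303, 95% interval 0.39 to 1.71, adjusted p = 0.0133). Without replicate 2 it was 1.39 (adjusted p = 7.32e-06), and without replicate 1 or replicate 3 it was 0.73 (adjusted p = 0.101) and 0.69 (adjusted p = 0.112). It also missed the threshold without untreated upf-1KO replicate 3 (0.98, adjusted p = 0.0524).

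For nor-1 the upf-1KO libraries with H2O2 had 767.5, 702 and 763 normalized counts, below the untreated 1004 to 1131. The groups did not overlap, at 0.694 times the untreated level (log2 fold change -0.53, standard error 0.193, 95% interval -0.95 to -0.11, adjusted p = 0.0394). The call was lost in 5 of the 12 fits with 1 library left out, those without WT replicate 1 or 3 or any of the upf-1KO replicates, all untreated, with a highest adjusted p of 0.11. The nox-1 gene was not called in upf-1KO, with 298, 249 and 291 normalized counts with H2O2 against 289 to 345.5 without (log2 fold change -0.15, 95% interval -0.49 to 0.18, adjusted p = 0.424), so its treated level lay near the WT treated level from a lower untreated one.

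The nox-2 gene in upf-1KO had 815, 1285 and 806 normalized counts with H2O2, all above the untreated 525 to 590.3. The groups did not overlap, yet the log2 fold change of 0.80 was not called (95% interval -0.14 to 1.74, adjusted p = 0.144), and its standard error of 0.431 was the widest of the 5 genes. The highest library was replicate 2, the one with the lowest sod-1 and sod-2 of its group. In replicate 2 cat-2 stood at 3326 normalized counts, against 580 and 561 in replicates 1 and 3, and its part in the nox-2 level was not tested. Without both WT replicate 1 and upf-1KO replicate 2 with H2O2, a choice made after seeing the values, nox-2 was called in upf-1KO (0.54, adjusted p = 0.00136) and not in WT (-0.10, adjusted p = 0.536). Calls were the rule in this fit, with 75.8% of all tested genes called in upf-1KO and 73% in WT.

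**Figure D3:**
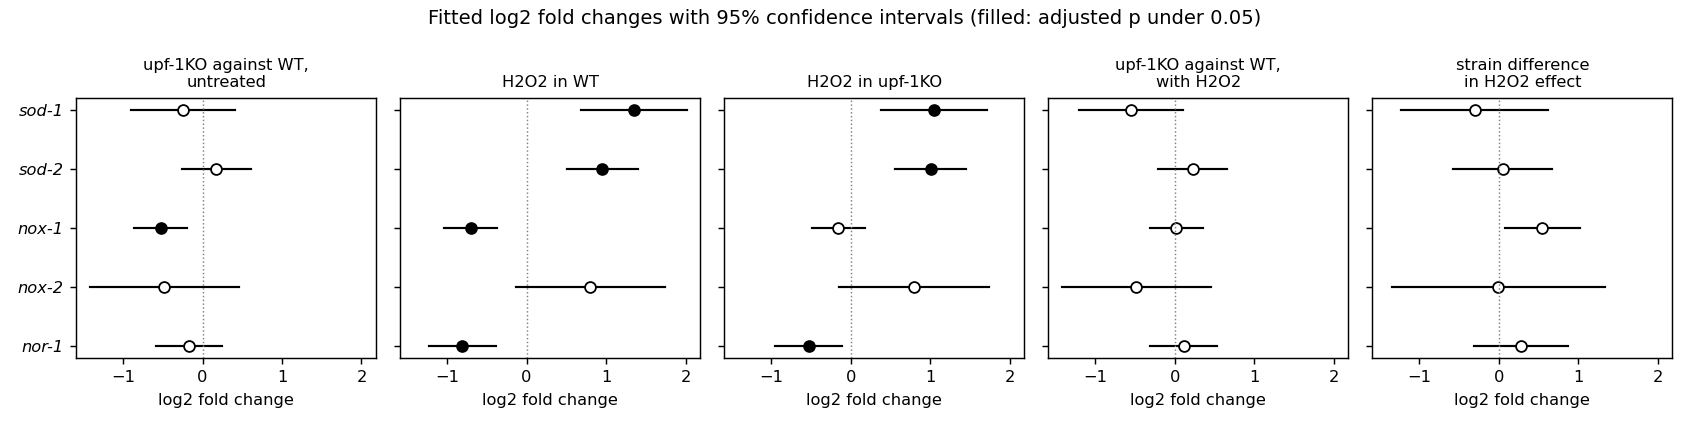
Log2 fold changes of the 5 genes in each comparison under TMM scaling, in 5 panels, with points for the fitted values, lines for 95% intervals and filled points where the adjusted p was under 0.05. The sod-1 and sod-2 intervals with H2O2 stay above 0 in both strains, and the nor-1 intervals below 0.

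Under the threshold that the study used, a change of at least 2-fold with an unadjusted p under 0.05, fewer of the 5 genes counted. None passed between the untreated strains (10.5% of all tested genes were higher and 2.67% lower by this rule), sod-1 alone was higher with H2O2 in WT (19% and 24.4%), and sod-1 and sod-2 were higher with H2O2 in upf-1KO (18.2% and 16.1%). None passed between the treated strains (15.4% and 5.72%) or in the interaction (10.1% and 5.92%).

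The treated strains were then compared with each other, and none of the 5 genes was called, where 27.5% of all tested genes were (15.5% higher and 12% lower). The log2 fold changes of upf-1KO against WT with H2O2 were -0.55 for sod-1 (95% interval -1.2 to 0.11, adjusted p = 0.191), 0.23 for sod-2 (-0.21 to 0.67, adjusted p = 0.413) and 0.02 for nox-1 (-0.31 to 0.36, adjusted p = 0.927). They were -0.48 for nox-2 (-1.42 to 0.46, adjusted p = 0.414) and 0.11 for nor-1 (-0.31 to 0.54, adjusted p = 0.682). At an unadjusted p under 0.05 the count was 0 as well, and DESeq2 called 0. With 1 library left out sod-2 was called higher in upf-1KO without its replicate 2 with H2O2 (0.44, adjusted p = 0.0237), where 36% of all tested genes were called. Under library totals 3 of the 5 were called higher in upf-1KO (sod-2 0.89, nox-1 0.73 and nor-1 0.81). That fit called 55.5% of all tested genes, and 94.8% of its calls were higher. Its median log2 fold change over all tested genes was 0.907, above each of these values. Without both WT replicate 1 and upf-1KO replicate 2 with H2O2, 3 of the 5 were called as well, sod-1 lower (-0.35, adjusted p = 0.00428) and sod-2 (0.48, adjusted p = 0.00188) and nor-1 (0.43, adjusted p = 0.00381) higher. That count was near the share over all tested genes, of which 53.1% were called in this fit.

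Whether the H2O2 effect itself differed between the strains was tested as an interaction, and again none of the 5 genes was called, where 6.71% of all tested genes were (3.86% positive and 2.86% negative). The largest difference was that of nox-1, whose H2O2 log2 fold change was -0.70 in WT and -0.15 in upf-1KO, a difference of 0.55 (95% interval 0.08 to 1.02, unadjusted p = 0.0256, adjusted p = 0.149). It was the only 1 of the 5 with an unadjusted p under 0.05, DESeq2 called 0, and it was called without upf-1KO replicate 2 with H2O2 (0.63, adjusted p = 0.0245). The fit without that library called 16.7% of all tested genes in the interaction. For sod-1 the difference was -0.30 (95% interval -1.23 to 0.63), for sod-2 0.05 (-0.57 to 0.67), for nox-2 -0.003 (-1.34 to 1.34) and for nor-1 0.28 (-0.31 to 0.88), and these intervals include differences of more than 1 for sod-1 and nox-2. Without both WT replicate 1 and upf-1KO replicate 2 with H2O2, 3 of the 5 genes were called in the interaction, namely nox-1 (0.58, adjusted p = 0.00685), nox-2 (0.65, adjusted p = 0.0159) and nor-1 (0.60, adjusted p = 0.00209). The share of all tested genes called in the interaction was then 37%, against 6.71% with all libraries. The calls of the 5 genes and of all genes thus both depended on these 2 libraries.

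The H2O2 changes of single genes depended on the scaling and on gene length. When libraries were scaled to their totals alone, the median log2 fold change of all tested genes with H2O2 in WT was -1.36, against -0.13 under TMM and 0.02 under DESeq2's size factors. In WT with library totals sod-1 was at 0.10 (adjusted p = 0.698), sod-2 at -0.28 (adjusted p = 0.192), nox-2 at -0.39, nox-1 at -1.94 and nor-1 at -2.02. Against the median of all genes these were 1.46, 1.09, 0.97, -0.58 and -0.66, differences that such a scaling leaves nearly as they were by construction, and the 2 dismutase genes were no longer called. In upf-1KO with library totals sod-1 was at 0.25 and sod-2 at 0.24, neither called, against a median of all genes of -0.64.

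Removing the trend of counts with gene length moved the short sod-1 and the longer genes in opposite directions. In WT the H2O2 log2 fold change of sod-1 became 0.62 (adjusted p = 0.0689), that of nox-1 -0.005 (adjusted p = 0.986) and that of nor-1 0.06 (adjusted p = 0.841). In upf-1KO sod-1 became 0.30 (adjusted p = 0.394), nox-1 0.37 and nor-1 0.18, the latter both uncalled. By contrast sod-2 became 1.52 in WT (adjusted p = 0.000571) and 1.43 in upf-1KO (adjusted p = 0.00119), and nox-2 became 1.49 (adjusted p = 0.00616) and 1.28 (adjusted p = 0.0174). Of the 5 genes, sod-2 was therefore the one called higher in both strains under TMM, under DESeq2's size factors and after the length trend was removed, and it was not called under library totals.

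**Figure D4:**
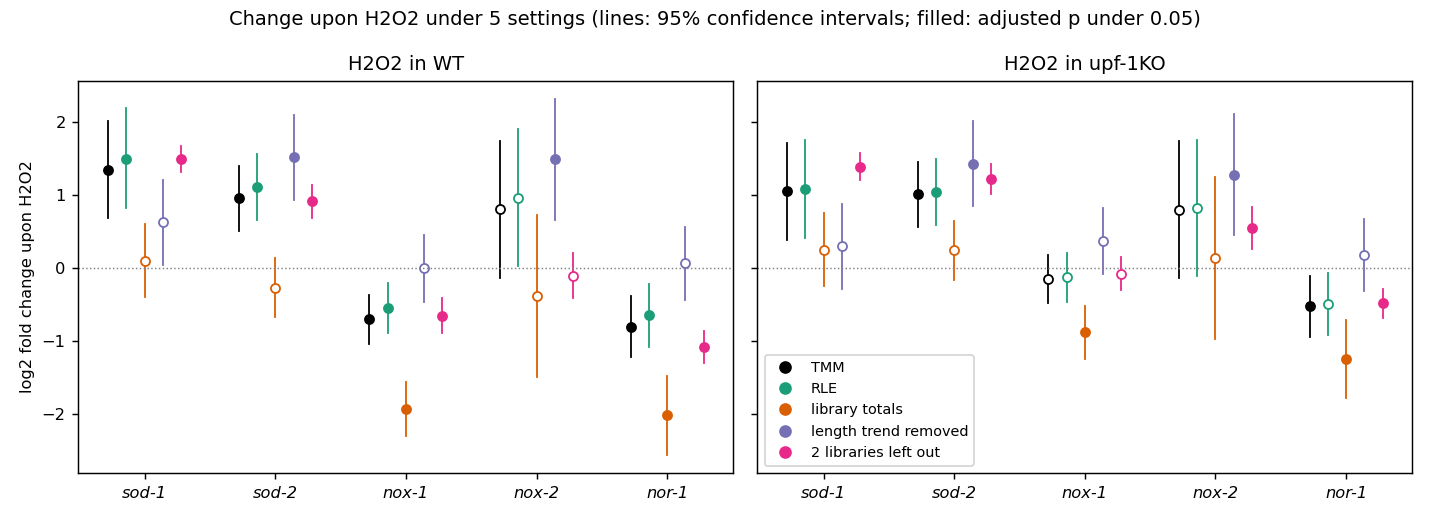
H2O2 log2 fold changes of the 5 genes in WT and in upf-1KO under TMM, DESeq2's size factors (RLE), library totals, removal of the length trend, and TMM with WT replicate 1 and upf-1KO replicate 2 with H2O2 left out. Lines are 95% intervals and filled points have an adjusted p under 0.05. The nox-1 and nor-1 values in WT move from about -2 under library totals to near 0 after the length trend is removed, while sod-2 is filled in both strains except under library totals.

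Ratios between genes of the same library do not depend on the scaling of libraries. For 3 pairs the ratios were tested by an exact permutation of 3 libraries against 3, which cannot give a two-sided p under 0.1. The log2 ratio of nox-2 to nox-1 counts was 0.76 ± 0.394 in untreated WT and 2.01 ± 1.16 in WT with H2O2 (SD, n = 3, exact permutation p = 0.1, 0.24 adjusted over 12 comparisons) and 0.84 ± 0.218 and 1.76 ± 0.524 in upf-1KO (the same p values). In both strains every treated library had more nox-2 per nox-1 than every untreated one, from 1.25 to 2.11 untreated to 2.27 to 10.1 treated. No adjusted p passed the threshold, which this test cannot reach with 3 libraries against 3. The nor-1 to nox-1 ratio was higher in untreated upf-1KO (1.79 ± 0.138) than in untreated WT (1.42 ± 0.191) without overlap (exact permutation p = 0.1, adjusted 0.24). With H2O2 in upf-1KO the same ratio was lower (1.42 ± 0.0693) than without H2O2, again without overlap and with the same p values. The sod-2 to sod-1 ratio was higher in upf-1KO with H2O2 (-2.46 ± 0.389) than in WT with H2O2 (-3.32 ± 0.359), also without overlap and with the same p values.

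Across the divide between the dismutases and the oxidases, 3 further ratios were chosen after the values were seen, so they are given with no test. Each treated library had more sod-2 per nox-1 than each untreated library of its strain. In WT the count ratios were 0.915, 0.716 and 0.8 without H2O2 and 2.9, 2.33 and 2.46 with it, and in upf-1KO 1.24, 1.51 and 1.23 without and 3.29, 2.27 and 3.16 with it. These transcripts have similar lengths (2923 and 3243 bases). On the log2 scale the treated mean was higher by 1.66 in WT and by 1.12 in upf-1KO. For sod-2 against nor-1 the count ratios went from 0.282 to 0.311 up to 0.802 to 1.23 in WT and from 0.326 to 0.434 up to 0.806 to 1.28 in upf-1KO. For sod-1 against nox-1, which differ in length (1129 and 3243 bases), they went from 5.56 to 6.65 up to 21.9 to 28.5 in WT, and from 6.16 to 8.51 up to 9.22 to 21.3 in upf-1KO, where 9.22 was that of replicate 2. None of these groups overlapped. In untreated mycelium sod-2 per nox-1 was also higher in upf-1KO (1.23 to 1.51) than in WT (0.716 to 0.915).

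**Figure D5:**
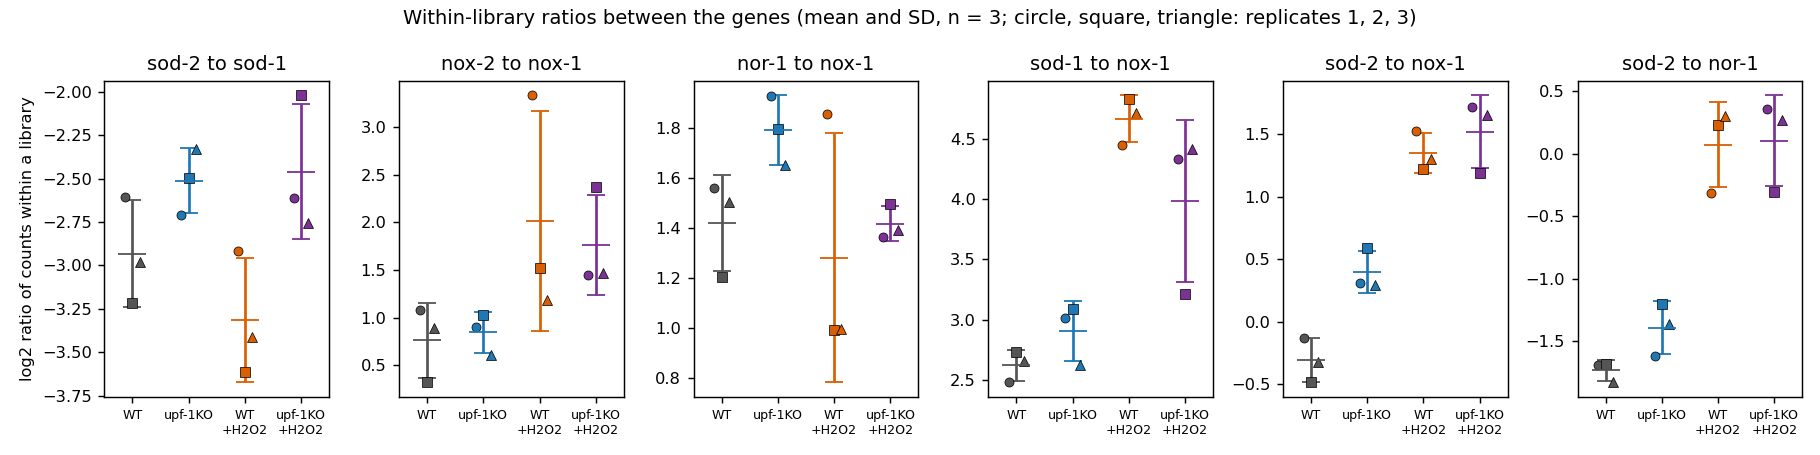
Log2 ratios of counts between pairs of genes within each library, with a marker for each library and bars and whiskers at the mean and SD of each group (n = 3). Each panel is 1 ratio with its own y axis and the 4 groups side by side, and the sod-2 to nox-1 points of the treated libraries (1.19 to 1.72) lie above all untreated points (-0.481 to 0.591).

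Of the genes known as partners of NADPH oxidases, rac-1 and cdc42 fell with H2O2 in both strains under TMM. The share of the list called in either direction was near that over all genes. Its share called lower was above that over all genes, in a list of only 5 genes that was not tested as a set. The list holds rac-1 and cdc42, small GTPases of which Rac is a known component of NADPH oxidase complexes, cdc24, the exchange factor of Cdc42, ham-6, a cell fusion gene, and NCU06593, which has no symbol in RefSeq. None of these 5 genes was called between the untreated strains by edgeR or DESeq2, and 0 had an unadjusted p under 0.05, where 15.1% of all tested genes were called. With H2O2 in WT 3 of 5 were called lower and none higher (rac-1 -0.90, cdc42 -0.87 and NCU06593 -1.02 on the log2 scale), with a list median of -0.87 against -0.13 for all tested genes, of which 56.6% were called and 30.2% lower. In upf-1KO 2 of 5 were lower and none higher (rac-1 -0.47 and cdc42 -0.71), with a median of -0.47 against 0.08 and 48.8% of all tested genes called, 22.8% lower. There ham-6 went the other way without overlap of its groups and just missed the threshold (0.70, adjusted p = 0.0531). DESeq2 and RLE factors each called 1 of the 5 higher and 2 lower in upf-1KO, where 52.5% and 49% of all tested genes were called. Replicate 2 of treated upf-1KO was again apart, with 340 normalized counts of cdc24 against 157 and 100.1, and 399 of NCU06593 against 121 and 118. Without it 4 of 5 were lower in upf-1KO (median -0.66 against -0.061 for all tested genes), where 65.2% of all tested genes were called. Between treated strains 1 was then higher and 2 lower, where 36% of all tested genes were called. In the interaction 1 was called, where 16.7% of all tested genes were. With all 12 libraries none was called between the treated strains or in the interaction by edgeR or DESeq2, with 1 gene each at an unadjusted p under 0.05 (ham-6 and rac-1). Of all tested genes edgeR called 27.5% between the treated strains and 6.71% in the interaction. After the length trend was removed 1 was higher and 2 lower in WT, where 52% of all tested genes were called. Under library totals all 5 were lower in WT, where 74.5% of all tested genes were called. The count of partners that fell with H2O2 thus depends on these settings.

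Catalases break down the H2O2 that dismutases make, and their genes were mostly called between the untreated strains. Of cat-1, cat-2, cat-3 and cat-4, 3 were called higher in untreated upf-1KO (cat-1 1.45, cat-3 2.02 and cat-4 2.34), with a list median of 2.08 against -0.13 for all tested genes, of which 15.1% were called and 10.4% higher. The fourth, cat-2, had 62.4 to 86.4 normalized counts in WT and 290.5 to 350.4 in upf-1KO, without overlap (2.14, adjusted p = 0.0605), and DESeq2 and the fit without the length trend called all 4. Without untreated WT replicate 1 or 2 the count was 2 of 4, where 9.22% and 9.12% of all tested genes were called. With H2O2 in WT 3 of 4 were called higher (cat-1 2.58, cat-2 2.2 and cat-3 1.71) and in upf-1KO 2 of 4 (cat-1 1.46 and cat-2 2.24), against 26.5% and 26% of all tested genes called higher. Without replicate 2 of treated upf-1KO the count there was 1 higher and 1 lower, where 65.2% of all tested genes were called. Between the treated strains cat-2 (2.18) and cat-4 (1.30) were called higher in upf-1KO, against 15.5% of all tested genes. The cat-2 groups overlapped, with 3326 normalized counts in 1 upf-1KO library, 580 and 561 in the others and 168 to 643 in WT. The count of 2 became 1 without that library (replicate 2) or with the replicate block, and 0 without WT replicate 2 with H2O2. Of all tested genes those fits called 36%, 22% and 18% in that order. In the interaction cat-3 was called (-1.99), with an H2O2 log2 fold change of 1.71 in WT and -0.29 in upf-1KO (adjusted p = 0.172). Of all tested genes 6.71% were called in the interaction, 2.86% negative. Under library totals the counts with H2O2 were 1 higher and 1 lower of 4 in WT and 0 higher and 2 lower in upf-1KO. These comparisons called 74.5% and 52.4% of all tested genes.

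The MAP kinase genes that act in hyphal fusion, for which NADPH oxidases are also needed, showed mixed directions. The 9 genes are the MAK-2 cascade (nrc-1, mek-2 and mak-2), the MAK-1 cascade (mik-1, mek-1 and mak-1), the fusion genes so and ham-5, and ham-7, which encodes a cell wall protein needed for MAK-1 activation. None was called between the untreated strains by edgeR or DESeq2, where 15.1% and 20.7% of all tested genes were called, and 2 had an unadjusted p under 0.05 (mak-1 and mek-2). With H2O2 in WT 4 were called higher (ham-7 1.84, mek-2 0.70, mak-1 0.69 and mek-1 0.49) and 3 lower (nrc-1 -1.64, so -1.37 and mik-1 -1.03), with a median of 0.19 against -0.13 for all tested genes, of which 56.6% were called. In upf-1KO 1 was higher (ham-7 1.30) and 2 lower (nrc-1 -0.98 and so -0.95), where 48.8% of all tested genes were called. With the length trend removed 4 were higher and 1 lower in WT, and 4 higher and none lower in upf-1KO, where 52% and 43.5% of all tested genes were called. In replicate 2 of treated upf-1KO ham-5 had 537 normalized counts against 56.4 and 84.5, and mik-1 487 against 209 in both others. Without it 3 were higher and 4 lower with H2O2 in upf-1KO, and 7 of 9 lower between the treated strains, where 65.2% and 36% of all tested genes were called. With H2O2 and all 12 libraries, 5 of 9 were called lower in upf-1KO than in WT (mak-1 -0.86, mak-2 -0.84, mek-2 -0.70, ham-7 -0.45 and mek-1 -0.43), where 27.5% of all tested genes were called and 12% lower. The count was 3 of 9 with the replicate block, where 22% of all tested genes were called. It was 0 with only the treated groups fitted, where 3.97% of the genes tested were called. None was called in the interaction, where 2 had an unadjusted p under 0.05 (ham-7 and nrc-1) and DESeq2 called 1. Of all tested genes edgeR called 6.71% there and DESeq2 12%. These directions also depended on scaling, since under library totals 1 was higher and 8 lower in WT with H2O2, and 2 were higher and none lower in treated upf-1KO against treated WT. Library totals called 74.5% and 55.5% of all tested genes in these comparisons.

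The genes whose scaled log2 counts followed each member most closely over the 12 libraries are given as a description, since the 12 points share 4 groups and the same scaling. For sod-1 they were nuo20.1 (NCU09460, Pearson r = 0.995) and NCU05982 (0.991). For sod-2 they were NCU01914 (0.987) and NCU07167 (0.979), for nox-1 NCU04862 (0.975) and NCU08226 (0.959), for nox-2 NCU07720 (0.968) and NCU03697 (0.964), and for nor-1 met-6 (NCU00892, 0.981) and NCU07121 (0.974). Among the members themselves, sod-1 and sod-2 had r = 0.795 over the 12 libraries, and nox-1 and nor-1 0.68. Once the group means were taken out, r was 0.697 for sod-1 and sod-2 and -0.219 for nox-1 and nor-1. The nox-2 gene had -0.122 with nor-1 over the 12 libraries and 0.837 once the group means were taken out, and their fitted H2O2 changes had opposite signs in both strains. In WT with H2O2, replicate 1 was the highest library for both nox-2 (2599 normalized counts) and nor-1 (931). How far that library sets the 0.837 was not tested.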

How the data were processed

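Per the labels and the study's methods, RNA from mycelium was sequenced in 12 libraries, and the authors aligned the reads to NC12 with HISAT2 2.2.1 and counted them on genes with featureCounts (Subread 2.0.1, as named in the submitters' processing notes). The deposited counts are whole numbers without normalization for 10685 genes. The strand setting was not given in the sources used here. A further 12 deposited FPKM columns, which the authors computed per sample from the same reads, were not used. Lengths are the exonic lengths given in the deposited table.

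The counts were fitted with edgeR 4.0.16 under R 4.3.3 (TMM, filterByExpr, glmQLFit and glmQLFTest with a mean for each of 4 groups over 12 libraries). A gene was called at an adjusted p under 0.05 over the 7878 genes that passed the filter. Standard errors were taken from the fold change and its F statistic. Scaled log2 counts (CPM) used a prior count of 2. Alternatives were DESeq2 1.42.0, its size factors (RLE), library totals, no filter, at least 10 counts in every library, a 2-fold threshold with unadjusted p under 0.05 (the study's), only the groups compared, the replicate block, removal of the length trend (loess, span 0.5), the block with that removal, and each library left out, with the pair of treated libraries highest in nox-2 left out as an alternative chosen after seeing the data. The scripts were tested on simulated data. The members and the lists were chosen with earlier results of these data known. The genes named are the 5 members, the listed partners, catalases and MAP kinase genes, upf-1, and for each member the 2 genes with the highest Pearson r. No other gene with a sod symbol was found in RefSeq. Genes that only a product name would mark as superoxide dismutases are not covered here, so sod-1 and sod-2 may not be the full set.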

Additional observations from a re-analysis of the deposited data

How the results depend on the processing

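Over 545 refits of the members' log2 fold changes, 429 kept their direction and their side of the threshold, 36 lost the call, 25 gained it and 55 changed sign, 5 of them for called values (4 under removal of the length trend, 1 under library totals). With 1 library left out, the number of the 5 genes called ranged from 0 to 1 between untreated strains, 4 to 5 with H2O2 in WT, 1 to 4 in upf-1KO, 0 to 1 between treated strains and 0 to 1 in the interaction, and of all genes from 713 to 2853, 3878 to 5452, 3063 to 5188, 1430 to 2869 and 169 to 1328. In these fits the values that changed sign ranged from -0.0241 to 1.2 for nox-2 with H2O2 in WT. Between treated strains they ranged from -0.0166 to 0.436 for sod-2, -0.13 to 0.101 for nox-1, -0.915 to 0.315 for nox-2 and -0.118 to 0.303 for nor-1, and in the interaction from -0.732 to 0.0409 for sod-1, -0.309 to 0.264 for sod-2, -0.554 to 0.676 for nox-2 and -0.068 to 0.369 for nor-1.

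Between treated strains nox-1 and nor-1 changed sign under DESeq2 (-0.107 and -0.0171), RLE factors (-0.104 and -0.0152) and no filter (-0.11 and -0.0154), and sod-2 in the interaction (-0.0733, -0.0719 and -0.0742). DESeq2 called 945 genes in the interaction, against 529. Under library totals 0 of the 5 genes were called between untreated strains, 2 with H2O2 in WT, 3 between treated strains and 1 in the interaction, with 4371 (against 2165) and 1201 of all genes in the last pair. The log2 fold changes that reversed were 0.0303 for nor-1 between untreated strains, -0.276 for sod-2 and -0.391 for nox-2 in WT, 0.105 for sod-1 and 0.245 for nox-2 between treated strains, and 0.152 and 0.526 for these genes in the interaction. Of all calls with H2O2 in WT 46.7% were higher under TMM, 53.2% under RLE, 9.72% under library totals and 55.9% without the length trend, and in upf-1KO 53.3%, 54.7%, 17.6% and 55.7%. Between treated strains these shares were 56.4%, 44%, 94.8% and 40.6%, in the interaction 57.5%, 40.4%, 91% and 46%, and between untreated strains 68.9%, 69.1%, 84.7% and 59.8%.

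Between untreated strains 0 of the 5 genes were called without a filter, at a minimum of 10 counts in each library, and at the 2-fold threshold, which called 1 with H2O2 in WT and 1265 of all genes in the interaction. With only the groups compared, 3 of the 5 and 4376 of all genes (against 1192) were called between untreated strains, and 291 between treated strains. Without the length trend 0 of the 5 were called between untreated strains and 2 with H2O2 in WT. The reversed values were 0.0612 for nor-1 in WT, 0.368 for nox-1 and 0.181 for nor-1 in upf-1KO, -0.151 for nox-1 between treated strains and -0.0907 for sod-2 in the interaction. With WT replicate 1 and upf-1KO replicate 2 with H2O2 left out, chosen after seeing the data, 3 of the 5 and 4692 of all genes were called between untreated strains, 6018 of all genes with H2O2 in upf-1KO, 3 and 4213 between treated strains, and 3 and 2933 in the interaction, with nox-2 at -0.105 in WT, 0.168 between treated strains and 0.647 in the interaction. The causes of these changes were not tested.

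The replicate numbers did not pair the libraries. Of 18 same-numbered pairs 3 had a correlation of deviations over 0.1 (range -0.264 to 0.245), and 6 of 36 best partners shared a number. With the replicate block 27 of 30 values kept their call, 0 of the 5 genes were called between untreated strains (nox-1, adjusted p = 0.0604), 328 of all genes were called in the interaction, and nox-2 in the interaction was 0.151. The block with the length trend removed gave 0 and 2 of the 5 genes between untreated strains and with H2O2 in WT, 256 of all genes in the interaction, 0.0425 for nor-1 in WT, 0.357 for nox-1 and 0.148 for nor-1 in upf-1KO, -0.164 for nox-1 between treated strains and -0.149 for sod-2 in the interaction.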
